A study of Mus musculus with 8 samples.

Results

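Rab GTPases are small switch proteins that mark the membranes of the secretory and endocytic pathways. They were measured here in mouse embryos at the 2-cell stage. Probe sets whose only gene symbol was Rab, a number and at most a short suffix were taken, which gave 132 probe sets for 59 genes among 18193 genes with a single-symbol probe set. Effectors and regulators with Rab in their names are not among them. Where a gene had several probe sets, the brightest by mean log2 signal over the 8 arrays stands for it. Of the 59 genes, 48 passed the filter on dim signal and were tested, and 11 did not pass it.

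A Rab protein is active when it holds GTP and is then bound by effector proteins that tether, move or fuse vesicles. Guanine nucleotide exchange factors (GEFs) load GTP, GTPase-activating proteins (GAPs) speed its hydrolysis, and GDP dissociation inhibitors (GDIs) take the inactive form off the membrane. Rab escort proteins present each new Rab to geranylgeranyl transferase, which attaches the lipid tails that hold it in membranes. In the egg and early embryo this traffic serves the release of cortical granules, the turnover of surface proteins and the growth of plasma membrane at cleavage.

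The series asks how BRG1 supplied by the mother, a chromatin remodelling ATPase that Smarca4 encodes, bears on the start of embryonic transcription. Wild type 2-cell embryos (4 samples) were compared with Brg1 mutant 2-cell embryos (4 samples), each sample holding RNA of 20 pooled embryos. Strain, allele, Cre driver and embryo age beyond the stage are not given in the labels. The labels number the samples as replicates without naming separate females or collections, so p-values measure only the spread between these samples. In such pools fewer cells of a type and less RNA per cell cannot be told apart. Values are array signals on a linear scale, and signals of different probe sets are not compared with one another.

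Medians of the arrays ran from 36.3 to 47.6, and the precision is limited by how few arrays there are. All 10 oocyte and embryo markers with a probe set lay above the background bound on all 8 arrays; the bound is, for each array, the 95th percentile of 27 Bacillus control probe sets. The summed signal of these markers was 19043 to 27029.7 in wild type, 48178 and 52821 in mutant replicates 1 and 2, and 24463 and 21383 in replicates 3 and 4. A large part of this sum of raw signals was Oosp1. It read 5703 to 8216 in wild type, 21369 and 19965 in mutant replicates 1 and 2, and 6936 and 5360 in replicates 3 and 4. Zscan4c and Zscan4d, also listed, had no single-symbol probe set. In replicates 1 and 2, 8 of the 10 markers, all but Ooep and Pou5f1, were above all wild type samples. The share of all genes above wild type in this pair was not counted. Over all mutant samples 2 of the 10 markers were called higher, beside 3.01% of all tested genes. They were Zar1 (6.77-fold, limma adjusted p = 0.000674) and Gdf9 (2.40-fold, limma adjusted p = 0.0343). The brighter Smarca4 probe set read 796, 632, 612 and 661 in wild type and 388, 201, 273 and 291 in mutant samples, so all mutant samples were lower (-1.26, limma adjusted p = 0.0211). The dimmer one did not follow: it read 303, 194, 261 and 255 against 451, 146, 254 and 258 (0.04, limma adjusted p = 0.963). Which part of the transcript each reads, and whether the mutation removes it, was not analysed here. The mutant samples were unlike each other. Over 22518 probe sets, mutant replicates 3 and 4 reached r = 0.969 together but 0.747 to 0.758 with wild type arrays, and mutant replicates 1 and 2 reached 0.828 to 0.890 with wild type arrays. The summed signal of 16 granulosa and cumulus cell markers was 2610.2 to 3446 in wild type, 2814 and 1707 in mutant replicates 1 and 2, and 22983 and 19338 in replicates 3 and 4. In replicates 3 and 4, 10 of these 16 exceeded all 6 other samples, as did 20.0% of all 11934 tested genes. Among the 10 were Hsd3b1, Vim and Inhba, which in wild type read at most 32.7, 17.1 and 7.9. Amh and Cyp11a1 stayed within the range of the other samples. Spike-in controls were 4.81 and 3.37 times the wild type mean in mutant replicates 1 and 2, and the 3 prime to 5 prime signal ratio of actin was 16.3 to 21.1 in wild type and 4.88 to 15.0 in mutant samples. The part of these differences in the Rab values was not tested, and values are given for each pair of mutant samples as well.

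Rab27a was lower in mutant embryos, and the other tested Rab genes did not pass the test. Of 48 genes 1 was lower, 0 were higher and 47 did not pass (limma, Benjamini-Hochberg adjusted p under 0.05). That is 2.08%, where 7.04% of all 11934 tested genes were called, 3.01% higher and 4.03% lower. An unadjusted limma p under 0.05 was reached by 10 Rab genes, 20.8% beside 27.0% of all tested genes. The median Rab change was -0.19 on the log2 scale beside -0.05 for all tested genes, with 31 Rab estimates below 0 and 17 above. A missed threshold does not show equal levels. The 95% interval lay inside a 2-fold change either way for 19 of the 47 (40.4%, beside 34.3% of all genes that did not pass).

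**Figure D1:**
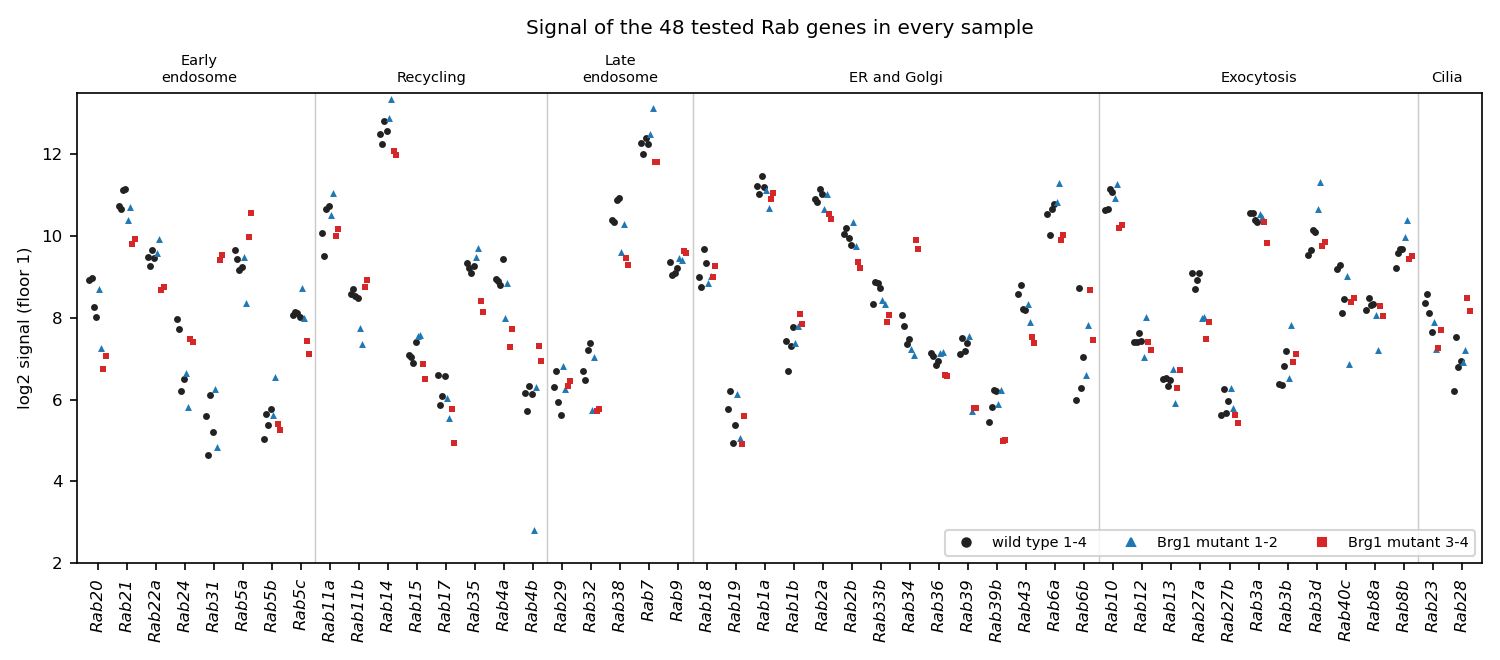
Log2 signal (y axis) of the 48 tested Rab genes (x axis, grouped by cellular role) in each of the 8 samples, with wild type as black circles, mutant replicates 1 and 2 as blue triangles and mutant replicates 3 and 4 as red squares. Red squares stand far above the others for Rab31 and Rab34, and all mutant points of Rab27a lie below its wild type points.

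Rab27a acts in regulated exocytosis, where it docks secretory lysosomes and melanosomes at the plasma membrane. Its signal was 546, 417, 485 and 549.8 in the wild type samples and 255, 260.0, 179 and 237 in the mutant samples. Every mutant sample was below every wild type sample, in both pairs. The fall was 2.16-fold, from 499.7 ± 62.4 to 233 ± 37.2 (SD, n = 4 each), at -1.11 on the log2 scale (SE 0.226, 95% interval -1.61 to -0.61, limma adjusted p = 0.0230). Against the same wild type samples it was -0.95 for mutant replicates 1 and 2 (limma adjusted p = 0.0445) and -1.27 for replicates 3 and 4 (limma adjusted p = 0.00155). The call was lost without wild type replicate 1, 3 or 4 (limma adjusted p = 0.0875, 0.0708 and 0.0812) and without mutant replicate 3 or 4 (limma adjusted p = 0.0683 and 0.0595), with estimates from -1.19 to -0.99 over the 8 fits that left out 1 sample.

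Rab27a had 3 other probe sets, all of them dimmer. The tested ones gave -1.66 (limma adjusted p = 0.0733) and -1.05 (limma adjusted p = 0.162), and neither passed. For mutant replicates 1 and 2 they gave -1.52 and -0.43 (limma adjusted p = 0.153 and 0.525). For replicates 3 and 4 they gave -1.79 and -1.66 (limma adjusted p = 0.00338 and 0.00701). The untested one read 41.3, 75.0, 39.5 and 32.7 in wild type and 45.3, 35.2, 25.5 and 25.6 in mutant samples, with overlapping groups. Rab27b, its close paralog, gave -0.10 (limma adjusted p = 0.870) on a probe set ending in _x_at, a suffix for probes that may bind other transcripts.

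The start regions of Rab27a are shown because it is the gene that passed, and those of Rab31, Rab34 and Rab33a because all were high in the same pair of mutant samples. Each window runs from 250 bases before to 50 after a RefSeq start in GRCm38.p6, 5 prime to 3 prime on the gene's strand. Capitals mark a match on either strand to the letters GGGCGG, called a GC box, to the E-box letters CACGTG, to the TATA box, searched as TATAAA, or to a CCAAT box, and none of these contains another.
Rab27a at chr9:73044560-73044859, plus strand: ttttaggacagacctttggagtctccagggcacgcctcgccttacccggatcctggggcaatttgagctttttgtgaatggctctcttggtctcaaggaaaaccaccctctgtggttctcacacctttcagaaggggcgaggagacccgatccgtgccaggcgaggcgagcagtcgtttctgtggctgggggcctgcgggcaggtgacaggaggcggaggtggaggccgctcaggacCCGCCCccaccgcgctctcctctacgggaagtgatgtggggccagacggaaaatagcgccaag
Rab27a at chr9:73063898-73064197, plus strand: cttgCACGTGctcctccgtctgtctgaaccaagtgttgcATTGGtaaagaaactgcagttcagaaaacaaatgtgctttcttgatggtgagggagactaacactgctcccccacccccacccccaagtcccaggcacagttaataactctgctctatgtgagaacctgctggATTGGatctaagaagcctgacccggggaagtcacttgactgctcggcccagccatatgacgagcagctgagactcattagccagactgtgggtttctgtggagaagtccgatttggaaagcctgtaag
Rab31 at chr17:65772703-65773002, minus strand: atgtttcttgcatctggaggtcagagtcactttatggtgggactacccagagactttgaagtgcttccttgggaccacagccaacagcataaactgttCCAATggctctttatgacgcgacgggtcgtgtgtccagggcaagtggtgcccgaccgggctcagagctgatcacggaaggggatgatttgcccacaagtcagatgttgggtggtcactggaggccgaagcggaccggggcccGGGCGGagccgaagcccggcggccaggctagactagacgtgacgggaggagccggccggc
Rab34 at chr11:78188498-78188797, plus strand: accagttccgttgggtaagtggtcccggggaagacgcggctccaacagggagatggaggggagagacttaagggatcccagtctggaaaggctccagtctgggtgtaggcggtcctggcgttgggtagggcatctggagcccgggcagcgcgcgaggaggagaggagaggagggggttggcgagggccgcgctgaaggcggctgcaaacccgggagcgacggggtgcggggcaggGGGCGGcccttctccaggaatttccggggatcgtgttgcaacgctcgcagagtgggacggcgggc
Rab34 at chr11:78188177-78188476, plus strand: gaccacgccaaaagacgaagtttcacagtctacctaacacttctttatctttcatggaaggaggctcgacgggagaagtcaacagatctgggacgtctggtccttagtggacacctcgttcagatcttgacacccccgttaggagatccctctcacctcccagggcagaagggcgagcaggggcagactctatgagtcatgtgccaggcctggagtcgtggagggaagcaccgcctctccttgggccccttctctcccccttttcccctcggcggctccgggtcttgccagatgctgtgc
Rab33a at chrX:48519035-48519334, plus strand: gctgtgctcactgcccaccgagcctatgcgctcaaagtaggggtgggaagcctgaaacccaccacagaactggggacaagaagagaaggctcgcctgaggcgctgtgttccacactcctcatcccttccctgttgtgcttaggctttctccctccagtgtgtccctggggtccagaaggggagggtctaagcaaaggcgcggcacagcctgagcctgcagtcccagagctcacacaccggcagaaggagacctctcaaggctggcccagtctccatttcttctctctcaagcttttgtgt
The first Rab27a window holds 1 GC box, and the second holds 2 CCAAT boxes and 1 E-box. The Rab31 window holds 1 GC box and 1 CCAAT box, and the Rab34 window that starts farther along holds 1 GC box. The other Rab34 window and the Rab33a window hold none of these letters. Which start an embryo used was not measured.

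RefSeq windows were found for 48 of the 59 Rab genes, 60 windows in all. A GC box was in 68.3% of them beside 35.7% of all 32851 windows, and a TATA box in 6.7% beside 13.6%. A CCAAT box was in 43.3% beside 37.4%, and an E-box in 6 of the 60 beside 7.2%. Median GC content was 61.2% for Rab windows and 52.7% for all windows. These are matches of letters and not measured binding.

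Rab proteins of the early endosome sort what the cell takes up. Of 8 tested members 0 passed, and the median log2 change was -0.25. Rab21, which acts in integrin uptake, read 1689, 1629, 2238 and 2269 in wild type and 1351, 1662, 895 and 974 in mutant samples. Mutant replicates 3 and 4 were lowest and replicate 2 lay within the wild type range (log2 change -0.71, SE 0.265, limma adjusted p = 0.128). Without replicate 2 it passed, at -0.87 (limma adjusted p = 0.0441). Over the whole array, 2709 of 22518 probe sets were called without mutant replicate 1 and 2926 without replicate 2, beside 1478 with all samples. This increase applies to every Rab gene below that passed without 1 of these samples. Which sample is named for each gene was chosen after its values were seen. Rab20, found on endosomes and phagosomes, read 484, 502, 306 and 258 in wild type and 415, 153, 108 and 134 in mutant samples, with mutant replicate 1 alone among the wild type values. Its estimate was -1.10 and did not pass (95% interval -2.03 to -0.17, limma adjusted p = 0.136), and passed without replicate 1 at -1.52 (limma adjusted p = 0.0190).

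Rab31 works between the trans-Golgi network and endosomes. Its signal was 48.7, 24.9, 68.7 and 37.1 in wild type, 76.6 and 28.8 in mutant replicates 1 and 2, and 685 and 737 in replicates 3 and 4. The first pair lay in or near the wild type range and the second far above it, on the arrays with high granulosa marker signal. Over all 4 mutant samples Rab31 had the largest estimate of the tested Rab genes and did not pass (log2 change 2.12, SE 0.938, limma adjusted p = 0.187). The first pair gave 0.16 (limma adjusted p = 0.879) and the second 4.08, or 17.0-fold (limma adjusted p = 6.73e-05). Leaving out mutant replicate 2 alone gave a call, at 3.01 (limma adjusted p = 0.0317). A second Rab31 probe set did not follow: it read 74.3, 78.4, 52.6 and 61.6 in wild type and 76.1, 61.8, 66.1 and 45.8 in mutant samples (-0.10, limma adjusted p = 0.866).

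Rab5a, Rab5b and Rab5c drive early endosome fusion, and their log2 changes of 0.22, 0.25 and -0.26 did not pass. Rab5a read 802, 689.9, 575 and 609 in wild type and 714, 327, 1013 and 1504 in mutant samples. Mutant replicates 3 and 4 were above all other samples and replicate 2 was the lowest of all. For the second pair the estimate was 0.90 (limma adjusted p = 0.0106) and for the first -0.46 (limma adjusted p = 0.407). Rab22a and Rab24 gave -0.23 and -0.26, and their second tested probe sets 0.69 and 0.18 (limma adjusted p = 0.397 and 0.847).

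Recycling Rab proteins return receptors to the cell surface. Of 8 tested members 0 passed, and the median log2 change was -0.27. Rab4a, of the fast recycling route, read 490.3, 475, 447 and 698 in wild type and 257, 459, 157 and 213 in mutant samples. Only mutant replicate 2 reached the wild type range. The estimate was -1.05 (SE 0.330, 95% interval -1.78 to -0.32, limma adjusted p = 0.0820), and a second probe set gave -0.79 (limma adjusted p = 0.138). It passed without mutant replicate 2 (-1.34, limma adjusted p = 0.0181) and when each array was centred on its median (-1.23, limma adjusted p = 0.0496).

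Rab11a and Rab11b mark the slow recycling endosome. The brighter Rab11a probe set read 1070.0, 736, 1628 and 1695 in wild type and 1450.4, 2109, 1029.6 and 1160.5 in mutant samples, which overlapped (0.19, limma adjusted p = 0.774). The second tested one read 609, 618, 549 and 567 in wild type, 479 and 469 in mutant replicates 1 and 2, and 1142 and 1227 in replicates 3 and 4. There the first pair lay below all wild type samples and the second above them (0.36 over all, limma adjusted p = 0.566). The second pair alone gave 1.02 (limma adjusted p = 0.00131), against -0.15 on the brighter probe set (limma adjusted p = 0.729). Rab11b read 381, 419.5, 368 and 356 in wild type, 217 and 164 in mutant replicates 1 and 2, and 429.7 and 483 in replicates 3 and 4. The first pair lay below all wild type samples and the second above them, and the estimate over all was -0.38 (limma adjusted p = 0.545). For the first pair it was 2.02-fold lower (-1.01, limma adjusted p = 0.0391), and for the second 0.26 (limma adjusted p = 0.280). On the second tested Rab11b probe set the first pair read 127 and 223 and so lay on both sides of the wild type range of 171 to 202. There the second pair read 113 and 139, below that range. Rab4b read 7.0 and 79.6 in mutant replicates 1 and 2 and 158 and 122 in replicates 3 and 4 against 53.2 to 80.3 in wild type, and its 95% interval was wide (-2.07 to 1.56).

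Rab14 connects the Golgi with recycling endosomes and was read by 7 probe sets. The brightest read 5776, 4881, 7214 and 6036 in wild type and 7576, 10511, 4295 and 4065 in mutant samples. Its first mutant pair, the arrays with the high oocyte and embryo marker sum, lay above all wild type samples and its second below them, with 0.04 over all (95% interval -0.69 to 0.78, limma adjusted p = 0.954). Among the dimmer ones 2 passed, and on both the mutant samples were below all wild type samples. One read 306, 405, 349.8 and 372 in wild type and 162, 229.5, 141 and 105 in mutant samples, a 2.33-fold fall (-1.22, SE 0.273, limma adjusted p = 0.0305). The other read 403, 398, 454 and 534 against 276, 275, 229.5 and 221, 1.78-fold lower (-0.83, limma adjusted p = 0.0472). The remaining tested ones gave 0.40 and -0.43 (limma adjusted p = 0.516 and 0.396). Both untested ones had higher means in mutant samples, 62.4 against 21.0 and 49.1 against 23.1. The probe sets of Rab14 thus differed in direction, and the transcripts each one reads were not analysed here.

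**Figure D2:**
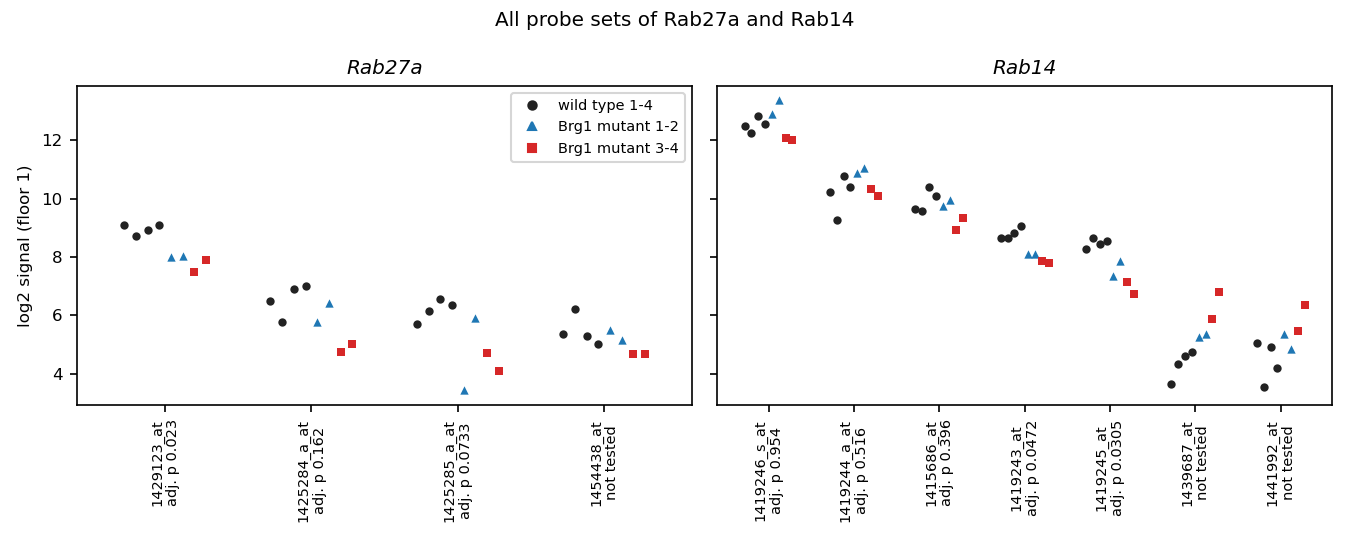
Log2 signal (y axis) on the 4 probe sets of Rab27a and the 7 of Rab14 (x axis), 1 point per sample, with the limma adjusted p by each name. On every tested Rab27a probe set the mutant points lie lower on average, whereas those of Rab14 separate downwards on 2 tested probe sets and not on the other 3.

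Late endosome and lysosome-related Rab proteins carry material towards degradation, back to the Golgi or into pigment granules. Of 5 tested members 0 passed, and the median log2 change was 0.07. Rab7, which drives fusion of late endosomes with lysosomes, read 4923, 4109.7, 5379.6 and 4885 in wild type and 5722, 8952, 3582 and 3562 in mutant samples. As for Rab14, and on the same arrays, the first mutant pair was above and the second below all wild type samples (0.07 over all, 95% interval -0.63 to 0.78, limma adjusted p = 0.914). Rab9, of transport from late endosomes to the trans-Golgi network, read 664, 530.0, 552 and 599 against 708, 688, 794 and 769.6. It was higher in every mutant than in every wild type sample, by 1.26-fold, and did not pass (0.34, limma adjusted p = 0.321).

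Rab38 and Rab32 act together in making melanosomes and related organelles. Rab38 read 1335, 1295, 1884 and 1958 in wild type and 781, 1253, 708 and 622 in mutant samples, again without overlap. Its estimate of -0.97 (SE 0.278, 95% interval -1.59 to -0.36) missed the threshold (limma adjusted p = 0.0615). It passed with only the upper 30% of probe sets tested (limma adjusted p = 0.0491), after median centring (limma adjusted p = 0.0416) and without mutant replicate 2 (limma adjusted p = 0.0190). Its probe set also ends in _x_at, and a second one gave -0.83 (limma adjusted p = 0.279). Rab32 read 104, 89.2, 148 and 166 against 54.0, 132, 52.7 and 54.2, with mutant replicate 2 alone in the wild type range (-0.87, limma adjusted p = 0.173). Without that sample it was -1.19 (limma adjusted p = 0.0346). Groups did not overlap for 3 of 48 tested Rab genes (6.25%), Rab27a and Rab38 being lower and Rab9 higher, while 18.7% of all tested genes did not overlap, 8.10% higher and 10.6% lower.

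Rab proteins of the endoplasmic reticulum and Golgi direct the early secretory pathway. Of 14 tested members 0 passed, and the median log2 change was -0.23. Rab1a, needed for traffic from the endoplasmic reticulum to the Golgi, read 2401, 2101, 2816 and 2346 in wild type and 2223, 1637, 1921 and 2129.6 in mutant samples. The groups overlapped (-0.29, 95% interval -0.77 to 0.19, limma adjusted p = 0.439). Rab2a, of the same step, read 1919.9, 1823, 2259 and 2086 against 1619, 2075, 1475 and 1368 (-0.32, 95% interval -0.81 to 0.17, limma adjusted p = 0.398). Rab6a, the main Rab of the Golgi, read 1475, 1041, 1610.0 and 1751 against 1815, 2532, 955 and 1050.3 (0.02, 95% interval -0.73 to 0.77, limma adjusted p = 0.977). For the brightest probe set of each of these genes the interval left out a 2-fold change either way. A second Rab1a probe set had an interval of -1.05 to 2.04 and gave 1.72 for mutant replicates 3 and 4 (limma adjusted p = 0.00614). On dimmer Rab2a probe sets the interval reached from -1.51 to 0.11 and from -2.08 to 0.03.

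Rab39, also known from late endosomes and autophagy, read 138, 182, 145 and 167 in wild type and 187, 52.4, 55.2 and 55.3 in mutant samples. Mutant replicate 1 was the highest of all samples and the other mutant samples were the lowest. It gave -1.09 over all (95% interval -1.99 to -0.19, limma adjusted p = 0.129) and -1.53 without replicate 1 (limma adjusted p = 0.0101).

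Rab34, a Golgi Rab with parts in macropinocytosis and in forming cilia, read 267, 225, 166 and 179.7 in wild type, 152 and 137 in mutant replicates 1 and 2, and 956 and 827 in replicates 3 and 4. The second pair was above all wild type samples and the first below them. Over all mutant samples Rab34 gave 0.80 (limma adjusted p = 0.455), against -0.51 for the first pair (limma adjusted p = 0.284) and 2.11 for the second (limma adjusted p = 0.000188). A second probe set read 596 and 578 in replicates 3 and 4 and at most 145 elsewhere. On it replicates 1 and 2 read 119 and 107, within the wild type range of 73.9 to 145. Rab33a, a Golgi Rab too dim to be tested, read 10.3, 7.9, 8.6 and 28.2 in wild type, 8.4 and 8.2 in mutant replicates 1 and 2, and 242 and 349 in replicates 3 and 4. Rab31 by its brighter probe set, Rab33a and Rab34 were thus high on the arrays where Hsd3b1, Vim and Inhba were high. On these arrays 8 of 48 tested Rab genes were above all 6 other samples, 16.7% beside 20.0% of all tested genes. Of the 16 granulosa and cumulus markers 10 were above them. The part of granulosa RNA in these Rab values was not tested.

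Exocytic Rab proteins bring vesicles to the plasma membrane, and Rab27a was the 1 of 11 tested members that passed (median log2 change -0.10). Rab10, of polarized delivery, read 1586, 1607, 2266 and 2156 in wild type and 1947, 2492, 1166 and 1233 in mutant samples (-0.21, 95% interval -0.86 to 0.44, limma adjusted p = 0.709). Rab3d, found on secretory granules, read 741, 813, 1134 and 1092 against 1622, 2545, 869 and 918. Its first mutant pair was above every other sample and 2.19-fold over wild type (1.13, limma adjusted p = 0.0412), while the second lay within the wild type range. Mutant replicates 1 and 2 are the arrays with the high sum of oocyte and embryo markers, among them Oosp1 at 3.12, Gdf9 at 2.97, Bmp15 at 2.01 and Dppa3 at 1.65 times the wild type mean in that pair. The part of this in the Rab3d value was not tested. Over all samples Rab3d gave 0.54 (limma adjusted p = 0.379), and its other probe sets gave -0.40, -0.31 and -0.35. For the first pair alone these other probe sets gave 0.09, -0.08 and -0.06 (limma adjusted p = 0.870, 0.906 and 0.924). Rab8a and Rab8b, which serve surface delivery and cilia, gave -0.43 and 0.28.

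**Figure D3:**
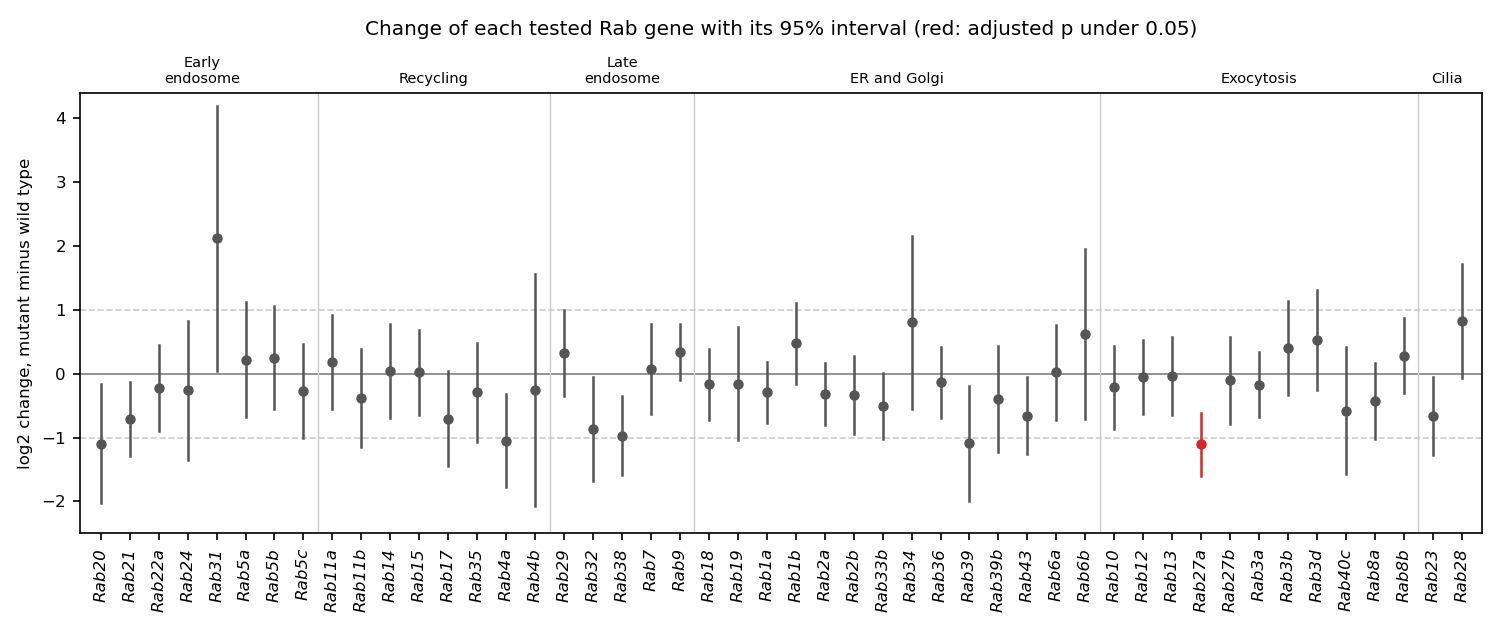
Log2 change, mutant minus wild type (y axis), with its 95% interval for each of the 48 tested Rab genes (x axis, grouped by cellular role), and dashed lines at a 2-fold change. Rab27a, in red, is the gene with a limma adjusted p under 0.05, and Rab31 has the highest estimate (2.12) with a wide interval.

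Both Rab proteins placed with cilia were tested and neither passed. Rab23, which restrains Hedgehog signalling, gave -0.66 (limma adjusted p = 0.169) and Rab28 gave 0.82 (limma adjusted p = 0.232). Second tested probe sets gave 0.05 for Rab23 and 0.72 for Rab28 (limma adjusted p = 0.930 and 0.199). Rab28 read 359 and 285 in mutant replicates 3 and 4, above at most 185 in the other 6 samples. The 11 untested genes were Rab25, Rab26, Rab30, Rab33a, Rab37, Rab3c, Rab40b, Rab42, Rab44, Rab7b and Rab9b, none of which exceeded 45.5 in a wild type sample. Rab30 lay under the background bound on all 8 arrays. Rab25, an epithelial recycling Rab, lay under it on all 4 wild type and above it on 4 mutant arrays, reading 10.6, 17.4, 23.3 and 15.3 against 37.7, 84.5, 62.5 and 34.7. This is at least 2.11-fold higher, the mutant mean against the higher of the bound and the signal in wild type, without a test. While 3.01% of all tested genes were called higher, of 8 oviduct epithelium markers 6 were tested and 1 was called higher. This was Krt18, which read 60.9, 48.3, 35.4 and 31.3 against 89.5, 149.7, 416 and 372 (2.33, limma adjusted p = 0.0249). Krt18, Krt8 and Ovgp1 exceeded all 6 other samples in mutant replicates 3 and 4, as did 20.0% of all tested genes. Pax8 (40.2 and 34.4) and the untested Foxj1 (20.6 and 9.5) lay below all 6 others in that pair. The summed signal of all 8 was 989 to 1057 in wild type and 1134, 1430.0, 1999 and 1943 in the mutant samples, and its part in the Rab25 value was not tested.

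With the mutant pairs apart, each against the same wild type samples, the number of calls differed. For mutant replicates 1 and 2, 1 Rab gene was higher (Rab3d) and 2 were lower (Rab11b and Rab27a). That is 6.25% of 48, where 7.44% of all genes were called, 3.86% higher and 3.58% lower. For mutant replicates 3 and 4, 5 were higher (Rab28, Rab31, Rab34, Rab4b and Rab5a) and 18 lower. That is 47.9%, where 43.5% of all genes were called, 19.2% higher and 24.4% lower. Lower genes included Rab20 (-1.63 on the log2 scale), Rab39 (-1.51), Rab4a (-1.50), Rab38 (-1.26), Rab32 (-1.20) and Rab21 (-1.05). Rab22a and Rab2a were also among them, each by its brightest probe set. Another tested probe set of each was called higher for this pair, at 1.57 and 0.73 (limma adjusted p = 0.00178 and 0.0209). Second probe sets of Rab31, Rab28 and Rab38 were not called for it, at -0.26, 0.67 and -0.99 (limma adjusted p = 0.513, 0.149 and 0.159). That of Rab34 was called higher as well, at 2.58 (limma adjusted p = 0.000181). The counts of calls thus hold for the brightest probe set of each gene. Rab27a was called for both pairs on its brightest probe set, and its other tested probe sets were called for the second pair alone. The Rab medians were 0.04 and -0.37, beside 0.04 and -0.19 for all genes.

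Counted by samples, 20 of 48 Rab genes were below all 6 other samples in mutant replicates 3 and 4, 41.7% beside 25.8% of all tested genes, and 8 were above them, 16.7% beside 20.0%. In mutant replicates 1 and 2, 7 were above all 6 others (14.6% beside 13.3%) and 2 below (4.17% beside 6.33%). Rab14, Rab15, Rab35 and Rab7 were above all others in the first pair and below all others in the second, as were Bmp15, Dppa3 and Zp3 among the oocyte and embryo markers. Rab11b and Rab34 were below in the first and above in the second. All these counts use the brightest probe set of each gene. The other tested probe sets of Rab14, Rab11b and Rab34 did not repeat these patterns. The difference between the pairs was not tested, since the labels do not make them groups. The high oocyte and embryo marker sum of the first pair and the high granulosa marker sum of the second lie beside all these counts, and their part in them was not tested.

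**Figure D4:**
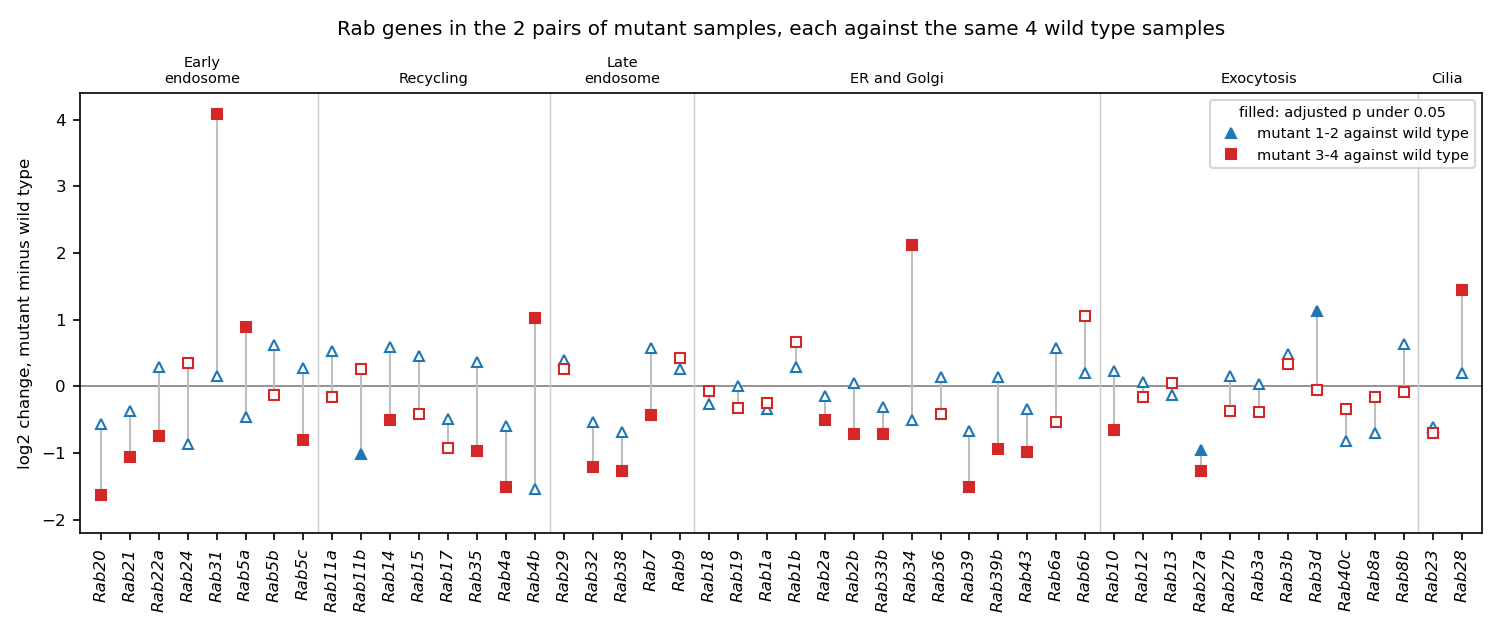
Log2 change of each tested Rab gene (x axis, grouped by cellular role) for mutant replicates 1 and 2 (blue triangles) and mutant replicates 3 and 4 (red squares), each against the same 4 wild type samples (y axis); filled symbols have a limma adjusted p under 0.05. Red squares are filled for 23 genes and reach 4.08 for Rab31, blue triangles are filled for 3, and Rab27a is filled in both.

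Probe sets of a gene often differed. Of 24 Rab genes with several tested probe sets, 14 had all estimates on 1 side of 0 and 10 did not. Of 88 tested Rab probe sets 3 passed, all lower, 1 of Rab27a and 2 of Rab14, where 6.56% of all tested probe sets were called and 3.58% were lower. Rab10, Rab11b, Rab21, Rab2b, Rab36, Rab38, Rab43, Rab4a and Rab8a had all tested probe sets below 0 without a call. Rab11a, Rab28, Rab34 and Rab6a had all above 0, also without a call. The widest spreads were those of Rab31 (-0.10 to 2.12), Rab14 (-1.22 to 0.40) and Rab2a (-1.03 to 0.22).

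Genes that act on Rab proteins were followed in 4 lists: prenylation and recycling, GEFs, GAPs and effectors. Of 110 tested genes 6 were higher and 2 lower, together 7.27% beside 7.04% of all genes. Of all tested genes 3.01% were higher and 4.03% lower. By list, 33.3% of prenylation and recycling genes, 2.86% of GEFs and 10.3% of GAPs were called, all higher. Among effectors 5% were called, all lower. The lists were not tested against each other. The median log2 change of the 110 genes was -0.09, beside -0.05 for all genes.

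Of 6 tested prenylation and recycling genes 2 were higher and 4 did not pass (median log2 change 1.04). Rabggtb, the catalytic subunit of Rab geranylgeranyl transferase, read 65.5, 95.3, 82.3 and 66.3 in wild type and 399.5, 226, 309.7 and 434 in mutant samples. All mutant samples were above all wild type samples, 4.34-fold (77.3 ± 14.3 against 342 ± 93.6, SD, n = 4 each, log2 change 2.12, SE 0.279, limma adjusted p = 0.00771). The estimate was 1.98 for mutant replicates 1 and 2 and 2.26 for replicates 3 and 4, and the call held in 8 of 8 fits that left out 1 sample. Chml, which encodes the Rab escort protein REP2, read 30.5, 10.4, 35.3 and 27.2 against 46.4, 81.9, 93.8 and 101 (1.72, limma adjusted p = 0.0481). It kept its call in 1 of these 8 fits, the one without mutant replicate 1 (limma adjusted p up to 0.135 in the others), and its second probe set gave 0.03. Rabac1, a prenylated Rab receptor, gave 1.02 (limma adjusted p = 0.0531), and Rabif, which binds nucleotide-free Rab proteins, -0.90 (limma adjusted p = 0.0524). Chm, for REP1, read 276 and 243 in mutant replicates 3 and 4 but did not exceed 52.3 in any of the others. Gdi2, for a GDI, gave -0.02 (95% interval -0.67 to 0.62).

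Of 35 tested GEF genes 1 was higher and 34 did not pass (median log2 change -0.04). Dennd1b, an exchange factor for Rab35, read 27.9, 10.3, 11.3 and 22.5 in wild type and 156, 159, 482 and 389.5 in mutant samples. It was 15.9-fold higher by the fit (3.99, SE 0.485, limma adjusted p = 0.00687), with 2 wild type arrays under the background bound, and the call held in 8 of 8 fits without 1 sample. Its other tested probe set gave 0.51 (limma adjusted p = 0.328), and Rab35 itself -0.29 (limma adjusted p = 0.653). Rab3ip, an exchange factor for Rab8, and Dennd6a, one for Rab14, were lower for mutant replicates 1 and 2 (-1.60 and -1.31, limma adjusted p = 0.0147 and 0.0209). Over all mutant samples they gave -1.05 and -0.98 (limma adjusted p = 0.0870 and 0.0584).

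Of 29 tested genes on the GAP list 3 were higher and 26 did not pass (median log2 change 0.05). Whether each acts as a GAP was not measured. Tbc1d14, which binds Rab11 and takes part in autophagy, read 109, 156, 119 and 123 in wild type and 296, 333, 657 and 707 in mutant samples, 3.68-fold higher (1.88, limma adjusted p = 0.0159). Its other tested probe set gave 0.48 (limma adjusted p = 0.429). Tbc1d8 was 2.00-fold higher (limma adjusted p = 0.0358) and Tbc1d23, an adaptor for vesicles arriving at the Golgi, 2.96-fold (limma adjusted p = 0.0367). Evi5, which binds Rab11, read 10405 and 11496 in mutant replicates 1 and 2 and 2851 to 4159.5 in the other 6 samples.

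Of 40 tested effector genes 2 were lower and 38 did not pass, and 30 estimates were below 0 (median log2 change -0.34). Inpp5b, a phosphoinositide phosphatase recruited by Rab proteins, read 423, 274, 391 and 393 in wild type and 102, 209, 114 and 90.6 in mutant samples (-1.58, SE 0.303, limma adjusted p = 0.0202). Rab11fip1, an effector of Rab11, read 617, 702, 601 and 627 against 501, 314, 214 and 229, 2.15-fold lower (-1.10, limma adjusted p = 0.0475). Mutant samples were below all wild type samples for both. Of the 8 fits without 1 sample, Tbc1d14 kept its call in 5 (lost without wild type replicate 1, 3 or 4) and Inpp5b in 3 (lost without those or mutant replicate 3 or 4). Tbc1d8, Tbc1d23 and Rab11fip1 kept theirs in 2 each, without mutant replicate 1 or 2 (limma adjusted p up to 0.111, 0.110 and 0.124 in the other fits).

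**Figure D5:**
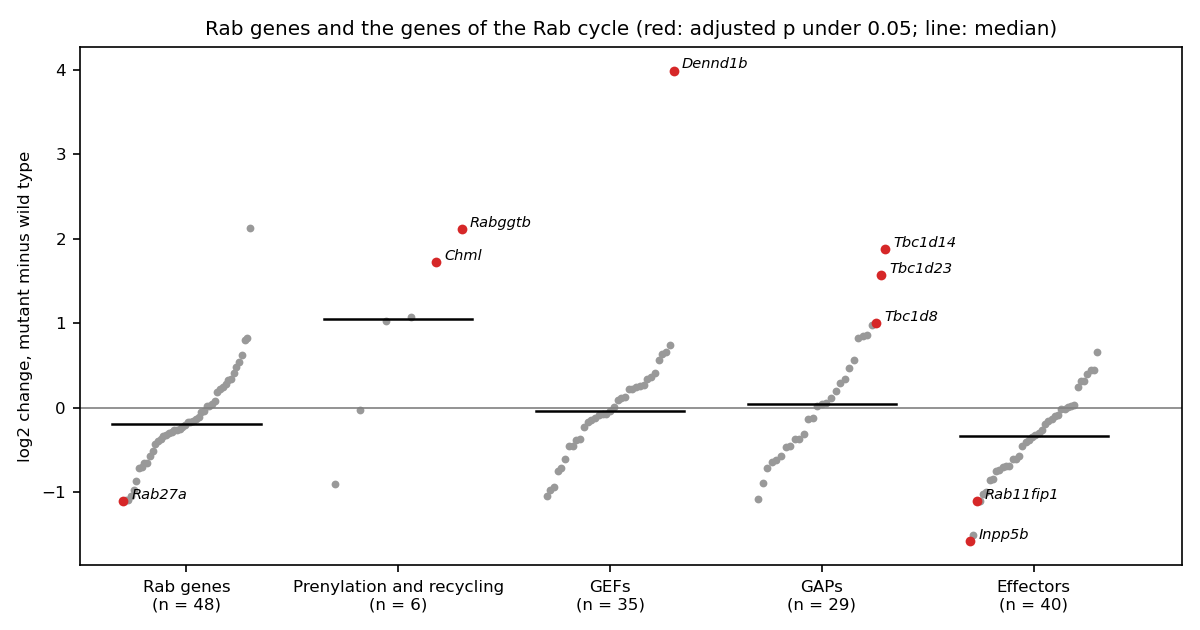
Log2 change, mutant minus wild type (y axis), of the tested Rab genes and of the 4 lists of genes that act on them (x axis), 1 point per gene, with list medians as lines and genes with a limma adjusted p under 0.05 in red. Rabggtb, Chml, Dennd1b and the 3 genes of the GAP list stand above 0, and Rab27a, Inpp5b and Rab11fip1 below it.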

How the data were processed

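RNA of 20 pooled embryos per sample was labelled with biotin and read on Affymetrix arrays, per the labels' protocols. The deposited values are intensities: the authors gave MAS5 signals, of unstated version, per the submitters' processing notes. Their 2% trimmed means were alike on all arrays (150.0).

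Signals below 1 were raised to it before log2. Of 45037 probe sets besides controls, the upper 50% by mean log2 signal (22518) were fitted with limma 3.58.1 (lmFit, eBayes with trend, two-sided) under R 4.3.3; adjustment ran over all of them. The fit was tested on simulated data. The platform annotation gave 34958 probe sets 1 symbol, 932 several and 9160 none; 34754 matched RefSeq entries, with 0 symbols changed.

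Rab genes, lists, markers and mutant pairs were chosen with earlier results of these data known, and the background bound after the data were seen. Values by sample are given for Rab genes that passed, the 8 with the highest wild type signal and the 4 with the largest change that did not pass; other Rab genes and uncalled regulators named were chosen after their values were seen. Of 137 listed regulators, 129 had a single-symbol probe set. Alternatives changed normalization, filter, pseudocount, trend, replicate block, choice of probe set and samples.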

Additional observations from a re-analysis of the deposited data

Results flagged for a closer look

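In 112 groups of 4 samples (tested Rab genes and called regulators), 3 held a sample whose log2 signal stood apart from the other 3 by Dixon's criterion at 95%, and chance gives about 1 in 20. Rab12 read 198.7 in wild type replicate 3 against 169.7 to 173.4 in the others. Rab32 read 132.3 in mutant replicate 2 against 52.7 to 54.2. Rab39 read 186.8 in mutant replicate 1 against 52.4 to 55.3. Without that sample Rab32 and Rab39 passed the test, as given above, but more probe sets of the whole array were then called too.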

How the results depend on the processing

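Rab27a kept its direction under all 19 alternatives run and its call under 13. Rab genes called numbered 1 as reported, 3 with median centring, 2 with the upper 30% filter, 3 without mutant replicates 3 and 4, 23 without mutant replicates 1 and 2, and 0 to 6 with 1 sample left out. Regulators called numbered 8 as reported, 5 with quantile normalization, 13 with median centring, 5 with no filter, 46 without mutant replicates 1 and 2, and 2 to 13 with 1 sample left out. Probe sets called numbered 1478 as reported, 9358 without mutant replicates 1 and 2, and 73 to 2926 with 1 sample left out. They split into 671 and 807 higher and lower as reported, 421 and 1557 with median centring, 493 and 810 with quantile normalization, 642 and 589 with no filter and 568 and 914 with the upper 30% filter. Their median change was -0.05, -0.22, -0.15, 0.05 and -0.10 in that order, and the Rab median -0.19, -0.37, -0.26, -0.17 and -0.22.

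With the replicate number as a block, 15 probe sets, 0 Rab genes and 0 regulators were called (Rab27a limma adjusted p = 0.0816). The labels give same-numbered samples no link besides the number. Their deviations correlated at 0.02, -0.18, -0.13 and -0.09, and those of differently numbered samples at -0.15 to 0.20. Whether same-numbered samples shared a collection cannot be told from these values, because the mutant deviations also hold the difference between the mutant pairs. Without mutant replicates 1 and 2, Rab14 (-0.50), Rab4b (1.03) and Rab7 (-0.43) were called with the opposite sign. Of 1049 gene values under alternatives, 62 others changed sign with no call in either fit. The cause was not tested. Signal near background limits the dimmer genes.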
